A study of Rattus norvegicus with 13 samples.

Results

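Genes that set the balance between cell survival and mitochondrial cell death were looked up by symbol, and 8 of 10 BCL2 family regulators were among the 14790 genes measured. They are *Bcl2* (ENSRNOG00000002791), *Bcl2l1* (ENSRNOG00000007946), *Bax* (ENSRNOG00000020876), *Bak1* (ENSRNOG00000000485), *Bcl2l11* (ENSRNOG00000016551), *Bid* (ENSRNOG00000012439), *Bad* (ENSRNOG00000021147) and *Bmf* (ENSRNOG00000007529), while *Mcl1* and *Bbc3* were not analysed here. RNA came from mammary epithelial cells of Wistar-Furth rats, a strain susceptible to mammary cancer, taken from 6 rats aged 6 weeks (inside the susceptible window, called within WOS) and 7 rats aged 10 weeks (outside WOS). Each rat gave 1 library, and the labels name no other genotype or treatment for either age. The sample labels describe ductal fragments caught on a filter after collagenase digestion of the abdominal and inguinal glands. For the RNA the paper names differential centrifugation after collagenase instead. Such fragments also carry fibroblasts and immune cells, so the values are those of a mixed sample.

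BCL2 family proteins decide whether the outer mitochondrial membrane stays intact. BAX and BAK1 are the effectors that form pores in it and release cytochrome c, BCL2 and BCL2L1 (BCL-XL) hold them back, and the BH3-only proteins BCL2L11 (BIM), BID, BAD and BMF tip the balance towards death. BIM and BID can bind to members of both kinds, while BAD and BMF bind to the survival proteins. In the mammary gland BIM and BMF are known for the clearing of cells from the lumen of growing ducts and end buds, and BCL-XL and BAX for the control of cell loss when the gland regresses after lactation.

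BIM is the textbook target of forkhead (FOXO) transcription factors within this family, so the promoter windows were searched for the forkhead core GTAAACA on both strands, and for the E-box CACGTG and the E2F motif GGCGGGAA, read by the regulators MYC and E2F1 whose genes are described further on. The windows are the 250 bases before each RefSeq start site on build GRCr8, found for 7 of the 8 genes, with 4 windows for *Bcl2l1* and 1 for each of the others. Those of the BH3-only genes *Bcl2l11*, *Bad* and *Bmf* are shown because *Bcl2l11* and *Bad* hold the only matches, 1 forkhead core each, and because *Bcl2l11* and *Bmf* had the lowest p-values of the family with differences of opposite sign. Capitals mark the match, read as TGTTTAC on the opposite strand in *Bad*.
Bcl2l11 promoter, chr3:135819792-135820041, plus strand: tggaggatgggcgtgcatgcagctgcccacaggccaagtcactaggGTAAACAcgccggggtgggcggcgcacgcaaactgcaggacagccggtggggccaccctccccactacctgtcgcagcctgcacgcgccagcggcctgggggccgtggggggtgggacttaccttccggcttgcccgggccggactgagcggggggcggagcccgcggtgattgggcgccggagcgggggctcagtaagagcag
Bad promoter, chr1:213562864-213563113, plus strand: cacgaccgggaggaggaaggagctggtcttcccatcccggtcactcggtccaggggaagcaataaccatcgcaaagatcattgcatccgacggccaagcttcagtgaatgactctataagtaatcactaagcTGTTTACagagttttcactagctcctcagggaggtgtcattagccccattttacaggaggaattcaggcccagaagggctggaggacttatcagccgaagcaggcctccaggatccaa
Bmf promoter, chr3:125974065-125974314, minus strand: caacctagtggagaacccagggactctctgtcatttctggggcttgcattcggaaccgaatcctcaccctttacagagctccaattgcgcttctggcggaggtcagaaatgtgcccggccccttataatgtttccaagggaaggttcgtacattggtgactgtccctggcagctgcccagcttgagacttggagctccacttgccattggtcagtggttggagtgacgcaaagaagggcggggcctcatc
The match lies 204 bases before the start in *Bcl2l11* and 118 bases before it in *Bad*, where position -1 is the base next to the start. Of all 33469 windows of this length, 3.21% hold the forkhead core, 5.59% the E-box and 1.52% the E2F motif. These shares are per window and not per gene. A match in these letters is a description of the sequence and not a binding site.

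The authors estimated counts with RSEM, applied a scaling factor to every library and rounded, and these values are called normalized counts here. Their total per rat was 13261906 to 15659533 in the younger rats and 13766735 to 15402814 in the older ones. In 7 rats some whole numbers from 1 to 30 never occurred, and from the numbers left out 1 read was estimated to count for 2.14 normalized counts in rat 78, 2.0 in rat 80 and at most 1.5 in the others. With the mean of each age removed, 28.3% of the remaining variation lay on a single component, whose largest gap set 5 rats (75 and 80 at 6 weeks, 78, 81 and 83 at 10 weeks) apart from the other 8, which are 4 of each age. Values for the 8-rat (larger) and the 5-rat (smaller) set are given beside some of the genes, and the split has no label behind it. The 5-rat set holds the highest estimates of normalized counts per read, 2.14 in rat 78, 2.0 in rat 80 and 1.5 in rat 75. Its rats 81 and 83 had 1.3 and 1.0, and the 8-rat set had 1.0 to 1.36. A value of 1.0 is the lowest this estimate can give, so the true value of such a rat may be lower. The part of read depth in the split was not tested.

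No BCL2 family gene passed the test between the ages. With limma on log2(normalized count + 1), adjusted after Benjamini-Hochberg over all 14790 genes, 0 of 8 had an adjusted p under 0.05, whereas 16.1% of all genes did (2381 genes). At an unadjusted p under 0.05 there were 3 of 8, against 31.6% of all genes. They were *Bak1* and *Bmf* with higher values within WOS (16.8% of all genes) and *Bcl2l11* with higher values outside WOS (14.8% of all genes). The other fits of the same data gave 0 of 8 under each change of scaling, pseudocount or minimum, with limma-trend and with a covariate for the first residual component, and 5 of 8 with limma's sample quality weights (*Bak1*, *Bcl2l11*, *Bid*, *Bad* and *Bmf*, adjusted p from 0.0122 to 0.0411). With these weights 5647 of all 14790 genes passed, against 2381 without them. The fit with no minimum was the main fit again, since every gene met the minimum. The covariate was built from values with the age means removed. It could change the p-values but not the size of a difference between the ages. The sign of the log2 fold change, taken as 6 weeks over 10 weeks, was positive for 6 genes (52.5% of all genes) and negative for 2. Its median was 0.22 over the 8 genes and 0.028 over all genes, and the median of its size without sign was 0.3 against 0.31. For 0 of 8 genes did the ages fall apart without overlap, as they did for 6.07% of all genes.

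**Figure D1:**
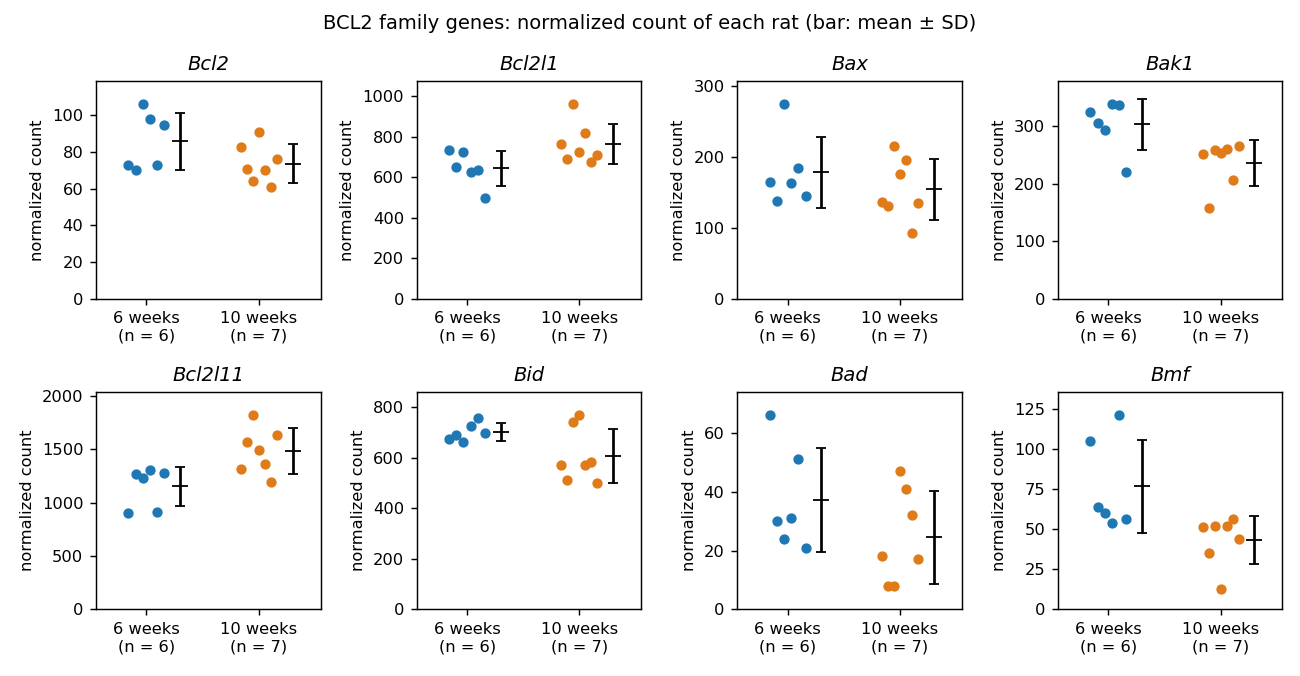
Normalized counts (vertical axes, from 0) of the 8 BCL2 family genes in each rat (points), with the mean and SD of each age as bars, 6 rats at 6 weeks and 7 at 10 weeks. The ages overlap in every panel, and for *Bak1* 5 of the 6 younger rats lie above all older ones.

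*Bcl2*, the founding survival gene of the family, had 70 to 106 normalized counts within WOS (median 84) and 61 to 91 outside WOS (median 71). The 6-week rats fell into 3 between 70 and 73 and 3 between 95 and 106, and the latter 3 lay above every rat at 10 weeks. The mean was 85.8 ± 15.6 (SD, n = 6) against 73.7 ± 10.6 (SD, n = 7), and the log2 fold change of 0.21 ± 0.14 (SE, limma adjusted p = 0.311) had a 95% interval of -0.08 to 0.50, that is 0.943- to 1.42-fold. The 8-rat set gave 0.093 and the 5-rat set 0.45, and it was 0.022 with sample quality weights.

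*Bcl2l1*, which encodes BCL-XL, was the survival gene with the opposite sign. It had 496 to 736 normalized counts within WOS (median 642.5) and 675 to 960 outside WOS (median 727), with 4 of 6 younger rats below all older ones. The other two 6-week rats, 70 and 75, stood at 736 and 726, inside the range of the older rats. With 645.0 ± 86.6 (SD, n = 6) against 763.9 ± 98.9 (SD, n = 7), its log2 fold change was -0.25 ± 0.12 (SE, limma adjusted p = 0.176, 95% interval -0.50 to 0.01). Single-rat omission, in 13 fits, kept it between -0.29 and -0.17.

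*Bax*, the effector that moves from the cytosol to mitochondria, had 138 to 274 normalized counts within WOS (median 164) and 92 to 215 outside WOS (median 136). All 6 younger rats exceeded the median of the older ones, but 1 alone, rat 75 with 274, was above every 10-week rat, and the next highest at 6 weeks was 184. The log2 fold change was 0.22 ± 0.21 (SE, limma adjusted p = 0.508), with an interval of -0.24 to 0.67, and dropped to 0.085 without rat 75.

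*Bak1*, the effector that resides in the mitochondrial membrane, had 220 to 338 normalized counts within WOS (median 315) and 158 to 265 outside WOS (median 254). Among the younger rats 5 of 6 exceeded all 7 older ones, and rat 86 with 220 lay below 5 of them. The mean was 303.0 ± 44.3 (SD, n = 6) against 236.3 ± 39.8 (SD, n = 7). The log2 fold change of 0.36 ± 0.15 (SE, 95% interval 0.04 to 0.68) had an unadjusted p of 0.0288 and a limma adjusted p = 0.111. Leaving out rat 86 raised it to 0.45 and brought it past the threshold (adjusted p = 0.0467), the single such case among the 8 genes under single-rat omission. With any other rat omitted the adjusted p of *Bak1* lay between 0.107 and 0.208.

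*Bcl2l11*, whose product BIM can activate BAX and BAK1 directly, had 908 to 1303 normalized counts within WOS (median 1253) and 1192 to 1821 outside WOS (median 1498), a difference that did not pass the adjusted threshold. Of the older rats 6 of 7 exceeded every younger one, and rat 85 stood at 1192. Rats 70 and 84 at 6 weeks, with 908 and 917, were below the other rats of their age, which had 1233 or more. The means were 1152 ± 187 (SD, n = 6) and 1484 ± 212 (SD, n = 7). The log2 fold change of -0.37 ± 0.13 (SE, 95% interval -0.66 to -0.08) corresponded to 0.774-fold, with an unadjusted p of 0.0166, the lowest of the family, and a limma adjusted p = 0.0786. Of the FOXO genes, *Foxo1* had a log2 fold change of -0.31 (adjusted p = 0.149), *Foxo3* of -0.05 (adjusted p = 0.894) and *Foxo4* of 0.31 (adjusted p = 0.0748), so none of these 3 passed.

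*Bid*, the link from death receptors to mitochondria through its cleavage by caspase-8, had 665 to 760 normalized counts within WOS (median 695) and 502 to 770 outside WOS (median 573). It was the steadiest gene of the family within WOS, with a coefficient of variation of 4.96% against 17.4% outside WOS. At 10 weeks 5 of 7 rats lay below every 6-week rat, and rats 78 and 81, with 741 and 770, lay among or above them. Its log2 fold change was 0.22 ± 0.12 (SE, limma adjusted p = 0.206, 95% interval -0.03 to 0.48). Both of these 10-week rats belong to the 5-rat set, and the 8-rat set alone gave 0.38 (adjusted p = 0.0351) where the 5-rat set gave 0.011 (adjusted p = 0.984). Over all genes, 3469 of 14774 passed in the 8-rat set and 0 of 14770 in the 5-rat set, against 2381 of 14790 in all 13 rats. The sets were drawn from the values themselves, and the difference between them was not tested.

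*Bad*, a sensitizer that binds survival proteins and is held in the cytosol when phosphorylated by AKT, had the lowest counts of the family, 21 to 66 within WOS (median 30.5) and 8 to 47 outside WOS (median 18). Both rats with 8 normalized counts, 74 and 78, come from libraries in which 1 read was estimated to count for 1.36 and 2.14 of these, so they rest on few reads. The coefficient of variation was 47.3% within WOS and 64.2% outside WOS. A log2 fold change of 0.74 ± 0.44 (SE, limma adjusted p = 0.261) therefore had the widest interval of the 8 genes, -0.20 to 1.68. The 8-rat set gave 1.14 and the 5-rat set 0.11.

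*Bmf*, a sensitizer tied to the cytoskeleton through dynein light chains, had the largest log2 fold change of the family. It had 54 to 121 normalized counts within WOS (median 62) and 13 to 56 outside WOS (median 51). All 6 younger rats exceeded the median of the older ones and 4 were above every 10-week rat, with rats 70 and 84 at 105 and 121 and the other 4 at 64 or less. At 10 weeks rat 81 stood lowest with 13, and the next was 35. The mean was 76.7 ± 28.8 (SD, n = 6) against 43.3 ± 15.1 (SD, n = 7), a log2 fold change of 0.85 ± 0.33 (SE, 95% interval 0.15 to 1.56) with an unadjusted p of 0.0211 and a limma adjusted p = 0.0922. Without rat 81 it was 0.60 (adjusted p = 0.0752), its smallest value under single-rat omission.

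**Figure D2:**
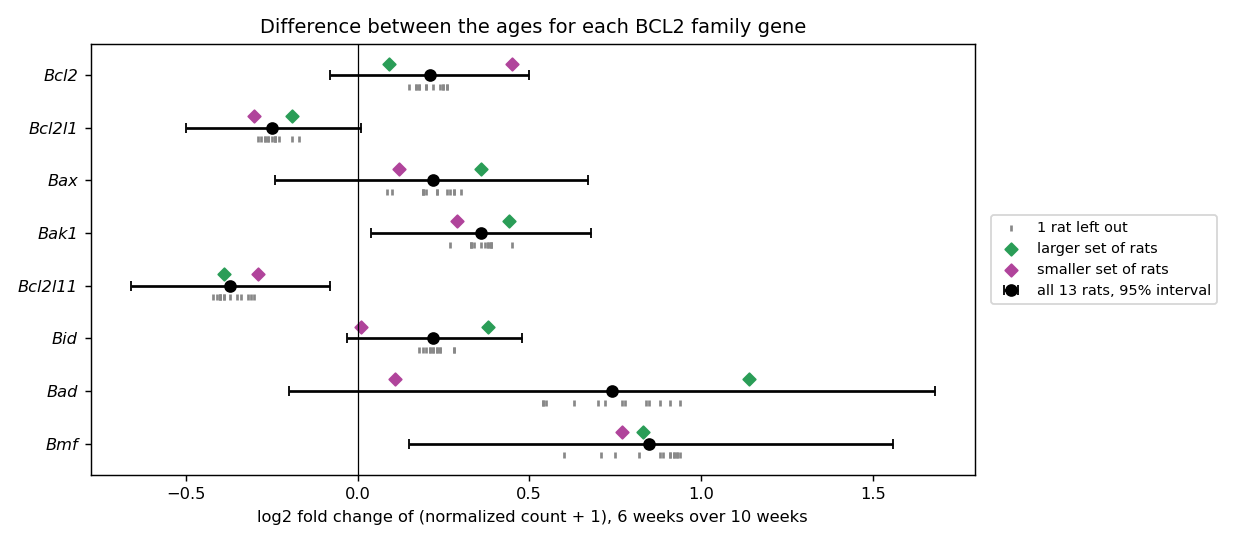
Log2 fold change of each BCL2 family gene, 6 weeks over 10 weeks (horizontal axis), with the 95% interval over all 13 rats (black), each fit without 1 rat (grey ticks) and each set of rats alone (green and purple diamonds). The interval holds 0 for 5 genes and lies off 0 for *Bak1*, *Bcl2l11* and *Bmf*, of which 0 had an adjusted p under 0.05.

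For 6 of the 8 genes the 95% interval lay within 2-fold in either direction (*Bcl2*, *Bcl2l1*, *Bax*, *Bak1*, *Bcl2l11* and *Bid*), with no correction for the number of genes. For *Bad* and *Bmf* it reached 3.2-fold and 2.94-fold. These folds are on the scale of normalized count + 1, which understates the change of *Bad*, the gene with the lowest counts.

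The extreme rats differed from gene to gene. At 10 weeks rat 85 was lowest for 4 genes (*Bcl2*, *Bcl2l1*, *Bax* and *Bcl2l11*) and highest for *Bmf*, rat 78 was highest for 3 (*Bcl2l1*, *Bax* and *Bcl2l11*), and rat 81 was highest for 3 (*Bcl2*, *Bid* and *Bad*) and lowest for *Bmf*. At 6 weeks rat 86 was lowest for 3 (*Bcl2l1*, *Bak1* and *Bad*). Rats 70 and 84, the 2 highest for *Bmf* and for *Bad* at 6 weeks, were the 2 lowest for *Bcl2l11*.

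Ratios of a survival gene to *Bax* within a rat do not depend on how its library was scaled, and since the genes differ in length only their change between rats can be read. The *Bcl2* to *Bax* ratio ran from 0.387 to 0.655 within WOS (median 0.475) and from 0.298 to 0.663 outside WOS (median 0.542), so the younger rats lay wholly inside the range of the older ones. On the log2 scale the means were -1.03 ± 0.31 (SD, n = 6) and -1.03 ± 0.42 (SD, n = 7). The *Bcl2l1* to *Bax* ratio was 2.65 to 4.71 within WOS (median 3.65) and 4.13 to 7.34 outside WOS (median 5.27), with 4 of 6 younger rats below all older ones. Its log2 means of 1.88 ± 0.30 (SD, n = 6) and 2.35 ± 0.29 (SD, n = 7) differed by -0.46 with a standard error of 0.16, given as a description with no test. Leaving out each rat in turn moved this difference between -0.53 and -0.37.

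**Figure D3:**
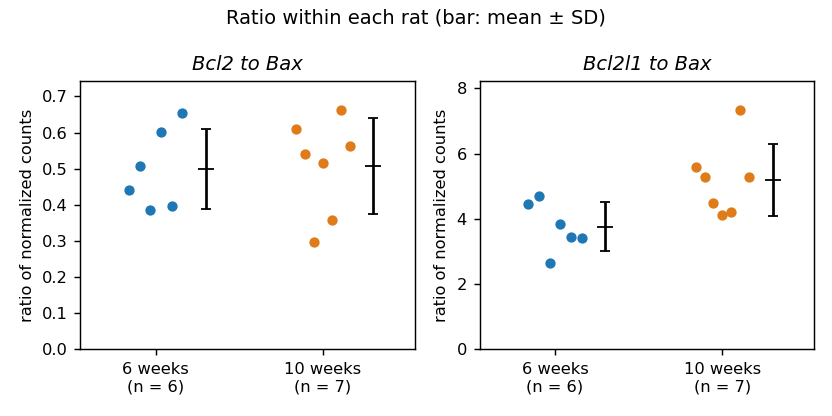
Ratio of the normalized counts of *Bcl2* to *Bax* (left) and of *Bcl2l1* to *Bax* (right) in each rat (points; vertical axes from 0), with mean and SD as bars. On the left the 6-week ratios lie inside the range of the 10-week ratios, and on the right 4 of the 6 rats at 6 weeks lie below the lowest 10-week ratio of 4.13.

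Around the family, 90 other genes of cell death were looked up in 5 lists, and 86 of them were measured. Of these 86, 9 passed the threshold (10.5%, against 16.1% of all genes), 4 with higher values within WOS (8.71% of all genes) and 5 with higher values outside WOS (7.39%), and the median log2 fold change of the 86 rounded to 0. The caspases and apoptosome genes, only some of which act once cytochrome c is out, gave 0 of 11. *Apaf1* had a log2 fold change of 0.19 (adjusted p = 0.223) and *Casp8*, which cleaves BID, of 0.24 (adjusted p = 0.363). *Cycs*, a gene with many near-identical pseudogenes that can share its reads, was at -0.77 (adjusted p = 0.231). Among other genes of the BCL2 family or linked to it 1 of 13 passed. This was *Bok*, a BAX-like gene, with 89 to 325 normalized counts within WOS (median 236) and 53 to 167 outside WOS (median 94), so that 4 of 6 younger rats exceeded all older ones. Its log2 fold change of 1.07 ± 0.34 (SE, adjusted p = 0.0481) was near the threshold and passed in 3 of 13 single-rat omissions (rat 75, 83 or 86), with adjusted p from 0.0182 to 0.112. It did not pass with library size scaling (adjusted p = 0.0607) or a pseudocount of 0.1 (adjusted p = 0.0519). The 8-rat set gave 1.25 and the 5-rat set 0.77.

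**Figure D4:**
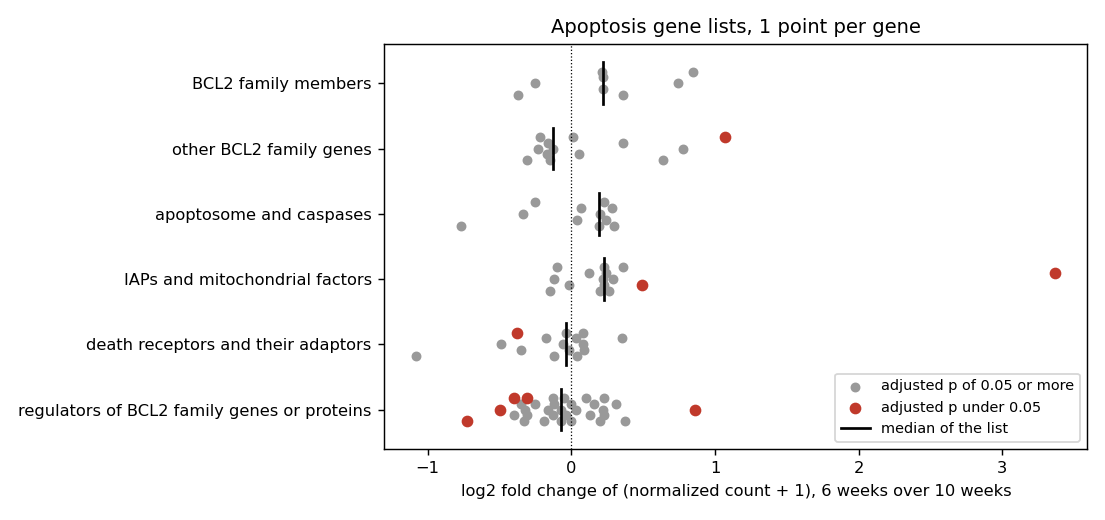
Log2 fold change, 6 weeks over 10 weeks (horizontal axis), of every gene of the BCL2 family and of the 5 lists around it (1 point per gene; red where the adjusted p was under 0.05; the black bar is the median). The 8 family genes hold no red point, and the 9 red points of the lists lie on both sides of 0, with *Birc5* at 3.37 farthest out.

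Inhibitors of apoptosis and mitochondrial factors had 2 of 15 genes past the threshold (13.3%, against 16.1% of all genes), both with higher values within WOS. *Birc5* (survivin) is an inhibitor of apoptosis that also serves chromosome segregation in mitosis, and it rose from 0 to 10 normalized counts outside WOS to 19 to 68 within WOS, with no overlap. Its log2 fold change was 3.37 ± 0.47 (SE, adjusted p = 0.000653), and it passed in 13 of 13 single-rat omissions. All 8 proliferation markers, listed apart, had higher values within WOS, and 7 passed the threshold (8.71% of all genes passed in this direction). Their summed level was 3994 to 7462 against 2316 to 3316, and their part in the difference of *Birc5* was not tested. *Tmbim6* (BAX inhibitor 1), a membrane protein of the endoplasmic reticulum, had 1728 to 2654 normalized counts within WOS and 1337 to 2079 outside WOS, a log2 fold change of 0.49 (adjusted p = 0.0375) that passed in 4 of 13 single-rat omissions (rat 81, 83, 85 or 86; adjusted p from 0.0204 to 0.0867). The inhibitors *Xiap*, *Birc2* and *Birc3* had log2 fold changes of -0.02, 0.20 and -0.12 and adjusted p of 0.941, 0.432 and 0.459.

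Death receptors and their adaptors gave 1 of 15 (6.67%, against 16.1% of all genes). *Tnfrsf12a*, the receptor for the cytokine TWEAK, had 2559 to 3917 normalized counts within WOS and 4059 to 5180 outside WOS with no overlap. Its log2 fold change of -0.38 ± 0.12 (SE, adjusted p = 0.0475) passed in 0 of 13 single-rat omissions (adjusted p from 0.0586 to 0.0803) and not with library size scaling (adjusted p = 0.142). With sample quality weights it was -0.22 and did not pass (adjusted p = 0.0965). The receptor gene *Fas* had a log2 fold change of 0.03 (adjusted p = 0.92).

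Among 32 genes whose products act on BCL2 family genes or proteins, 5 passed, a share of 15.6% that is near the 16.1% of all genes. *Myc*, which sensitizes cells to apoptosis as well as driving growth, had 2731 to 3566 normalized counts within WOS and 4234 to 6359 outside WOS with no overlap. The log2 fold change was -0.73 ± 0.12 (SE, adjusted p = 0.00172). *Nfkb1*, a subunit of NF-kappa-B, which drives survival genes including *Bcl2l1*, had 8092 to 10683 within WOS and 10646 to 14971 outside WOS, with a log2 fold change of -0.50 (adjusted p = 0.00779). *E2f1*, a cell cycle factor that can also induce BH3-only genes, had 81 to 107 within WOS and 33 to 83 outside WOS, a log2 fold change of 0.86 (adjusted p = 0.0127). The 8-rat set gave 1.10 and the 5-rat set 0.51 for *E2f1*. These 3 genes passed in 13 of 13 single-rat omissions.

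*Fbxw7*, the ubiquitin ligase subunit known for marking MCL1 and MYC for destruction, had 461 to 662 normalized counts within WOS and 572 to 825 outside WOS. Its log2 fold change was -0.40 (adjusted p = 0.0318), and it passed in 6 of 13 single-rat omissions (rat 75, 78, 80, 81, 83 or 85; adjusted p from 0.0143 to 0.0749). With library size scaling it was -0.36 and did not pass (adjusted p = 0.0733). The 8-rat set gave -0.60 and the 5-rat set -0.075. *Stat3*, the regulator of cell death in the regressing gland, had 8923 to 12397 within WOS and 12580 to 15509 outside WOS with no overlap, yet its log2 fold change of -0.31 (adjusted p = 0.049) passed in 0 of 13 single-rat omissions (adjusted p from 0.0515 to 0.0842) and not with library size scaling (adjusted p = 0.159). With sample quality weights it was -0.19 and did not pass (adjusted p = 0.0805).

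**Figure D5:**
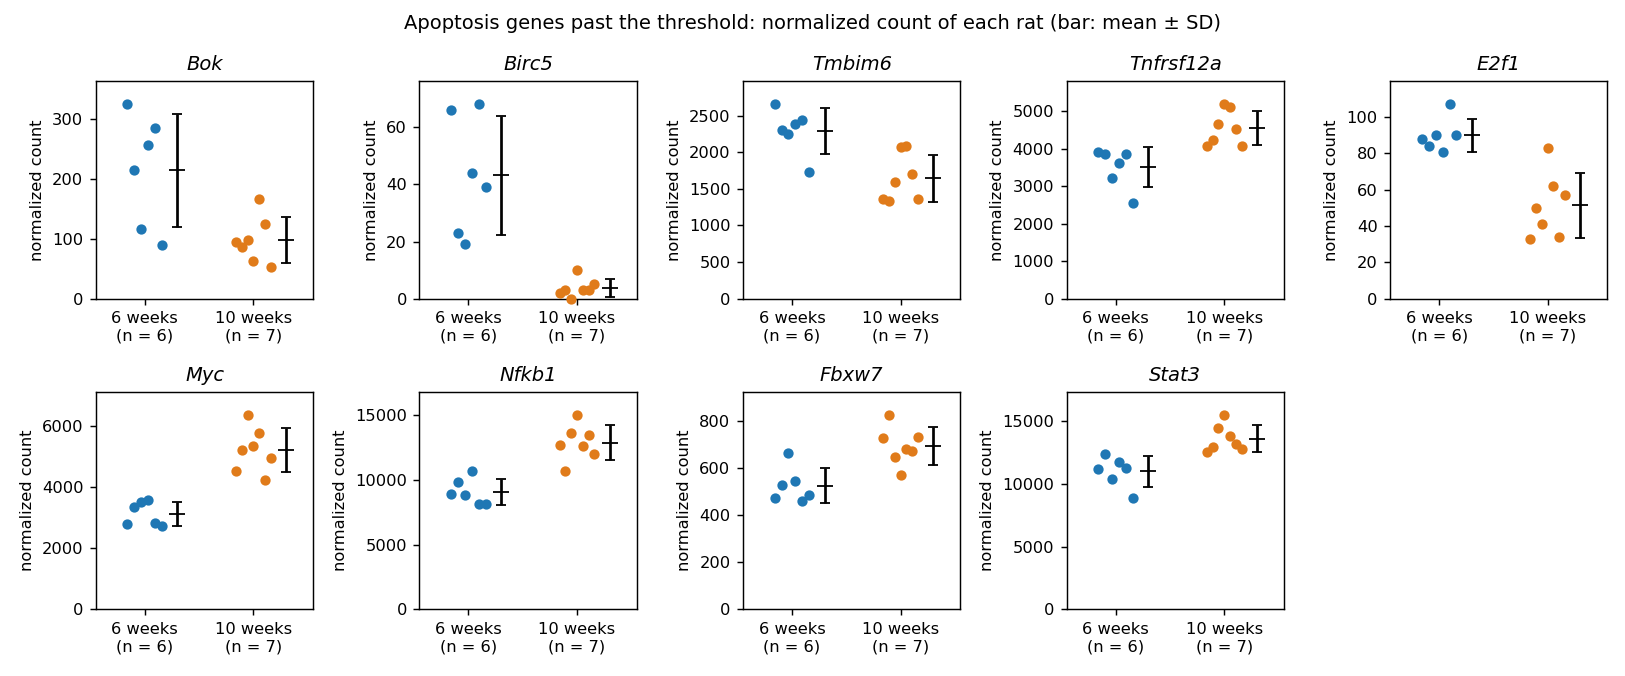
Normalized counts (vertical axes, from 0) of the 9 cell death genes with an adjusted p under 0.05 in each rat, with mean and SD of each age as bars. *Birc5*, *Tnfrsf12a*, *Myc* and *Stat3* show no overlap between the ages, and *Bok*, *Tmbim6*, *E2f1*, *Nfkb1* and *Fbxw7* overlap in 1 or more rats.

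Markers of the cell types such samples can hold were read against the same 16.1% of all genes. Luminal markers had 1 of 7 past the threshold (14.3%; *Epcam*, higher outside WOS) with a summed level of 28591 to 56579 within WOS and 40707 to 66006 outside WOS, and basal markers had 0 of 7 (18351 to 28790 and 25550 to 35430). Fibroblast markers had 3 of 6 with higher values within WOS (*Col1a1*, *Col3a1* and *Lum*), and their sum, most of it from the collagen genes, was 105605 to 221205 against 18981 to 54962 without overlap. The other fibroblast markers did not pass, with log2 fold changes of 0.57 for *Dcn*, 0.13 for *Pdgfra* and -0.24 for *Fbln1* (adjusted p of 0.197, 0.78 and 0.518). Mast cell markers had 5 of 6 with higher values within WOS and *Kit* higher outside WOS, with sums of 1751 to 2699 and 1502 to 3775. Most of these sums came from *Kit*, with means of 1681.5 within WOS and 2801.7 outside WOS, so they do not describe the other 5. Those had log2 fold changes from 1.94 (*Hdc*) to 3.98 (*Tpsab1*), and *Cpa3*, the highest of them in counts, had means of 382.67 and 33.857. Adipocyte markers gave 2 of 6 with higher values within WOS (sums of 1661 to 2505 and 1840 to 2906) and lymphocyte markers 1 of 5 (164 to 460 and 227 to 706). Most of the adipocyte sum came from *Fabp4*, which did not pass (means of 1744.7 and 1888.0). The lymphocyte sum came mostly from *Ptprc* and *Cd4*, which did not pass either. Macrophage markers gave 0 of 7 (1489 to 2600 and 1480 to 2686) and endothelial markers 0 of 6 (5918 to 10121 and 5480 to 8810). None of the markers was at 0 in all rats of an age, and a 0 in 1 or more rats occurred for *Ms4a2*, *Hdc*, *Tpsab1* and *Tpsb2* of the mast cell list, for *Adipoq* and *Plin1*, and among the lymphocyte markers for *Cd79b* and *Ms4a1*. In such bulk samples fewer cells of a type and less RNA per cell cannot be told apart, and the part of these differences in the values of the BCL2 family genes was not tested.

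In the RefSeq annotation matched by symbol, 4 of the 8 genes overlap another gene, *Bcl2* with 2 lncRNAs, *Bak1* with 1 lncRNA, *Bcl2l1* with 1 pseudogene and *Bcl2l11* with the protein-coding gene *Acoxl*. Whether the counting used strand is not given in the sources used here, so reads of these pairs may not have been told apart, and the values of these 4 genes are uncertain to that extent. Of the 9 other cell death genes past the threshold 1 has such an overlap, *Fbxw7* with *Dear*.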

How the data were processed

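The authors' reads of each rat were counted per gene with RSEM 1.2.22, and the deposited values are a score, namely counts scaled by a factor of each library and rounded to whole numbers. The submitters' processing notes name rn5 and the paper rn6; the annotation is not given in the sources used here. The table also holds the authors' edgeR comparison of the ages (fold change, mean abundance, likelihood ratio, p-value and false discovery rate) and a location word, none of which were used. All 13 per-rat columns were matched to rats by title. Since the values are not raw counts, limma 3.58.1 in R 4.3.3 was run on log2(value + 1) after dropping genes whose mean was under 1 (0 genes), as a two-sided test of age without covariates, using Benjamini-Hochberg adjustment over 14790 genes and a threshold of 0.05. All 8 genes passed this minimum. The fit was first tested on simulated data.

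The family and the lists around it were chosen with earlier results of these data known. Named were all family genes, the listed genes past the threshold (at most 4 per direction and list), and 2 ratios; other genes were named after their values were seen. Ratios with *Mcl1* could not be formed, and genes most like a changed member were not sought because 0 members changed. The promoter motifs were chosen after the values were seen, and sequences are from RefSeq (GRCr8), matched by symbol. Other settings tried were scaling by total, by upper quartile or by median ratio, adding 0.1 in place of 1, requiring 10 or more in every rat or nothing, limma-trend, weighting the libraries by quality, a covariate for the first residual component, and omitting each rat. Each set of rats alone was added after the data were seen. Summaries used Python 3.11.15, numpy 2.4.6, pandas 2.3.3 and matplotlib 3.10.9. Some genes of the lists are counted but not reported by name here.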

Additional observations from a re-analysis of the deposited data

Results flagged for a closer look

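Of 34 groups of rats examined (8 BCL2 family genes and 9 other cell death genes at 2 ages), 2 held a rat whose gap to the nearest other was large for the range of its group, by Dixon's 95% criterion, and chance alone gives about 1 in 20. *Bax* at 6 weeks stood at 274 normalized counts in rat 75, with a gap of 0.662 of the group's range. *E2f1* at 6 weeks stood at 107 in rat 84, with a gap of 0.654 of the range.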

How the results depend on the processing

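The count of BCL2 family genes past the threshold was 5 of 8 with sample quality weights (*Bak1*, *Bmf*, *Bid*, *Bcl2l11* and *Bad*) and 1 in the larger set of rats (*Bid*), and 0 or 1 when each rat was left out. The count over all genes, 2381 of 14790, was 5647 with the weights and 3526 with a covariate for the first residual component. In the larger set of rats it was 3469 of 14774 genes. When each rat was left out it was 1411 to 2680, with 1411 without rat 70, 1488 without rat 84 and 1558 without rat 87. The count over the other cell death genes, 9 of 86, was 28 with the weights, 15 with a covariate for the first residual component, and 4 to 8 when each rat was left out, with 4 without rat 70, 71, 72, 74 or 87 and 5 without rat 78, 80 or 84. The smaller set of 5 rats gave 0 for all genes (1976 at an unadjusted p under 0.05) and 0 for the cell death genes, on fewer rats. With the weights *Tnfrsf12a* and *Stat3* were no longer past the threshold. The weights were estimated from these 13 rats, and the cause of the larger counts was not tested. The sign of the log2 fold change was the same in every fit for all 8 family genes and all 9 named cell death genes, except that *Bad* with a minimum of 10 in every rat and *Birc5* with that minimum were not tested. A change of minimum, limma-trend and the covariate leave the log2 fold change of a tested gene as it was. Those fits therefore say nothing about its sign. No rat number is shared between the ages, so no paired analysis was possible because the rats are unpaired. The values are scaled, so the read depth behind the low counts of *Bad* is an estimate.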
